A study of Rattus norvegicus with 26 samples.

Results

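TCDD and PCB126 were compared at 1 nM and 10 nM in cultured rat hepatocytes, on 6 of the 26 arrays of the study. The arrays were picked by the chemical, dose and pool in their labels. TCDD (2,3,7,8-tetrachlorodibenzo-p-dioxin) is a planar chlorinated dioxin. PCB126 is a coplanar chlorinated biphenyl. The 3 TCDD arrays were 1 at 1 nM (pool 2) and 1 per pool at 10 nM, and the 3 PCB126 arrays had the same doses and pools, which gave 3 matched pairs. Primary liver hepatocytes from female rats of the strain Crl:CD(SD)IGS BR (Sprague Dawley) were exposed for 48 h in 0.5% DMSO. The vehicle arrays, 1 per pool, had DMSO alone. A pool mixed the cells of 3 animals, so 10 nM rested on 2 pools and 1 nM on 1 pool. Values are log2 expression, so a difference of 1 is a doubling, and they are relative signals of 1 probe set that cannot be ranked between genes. The comparison asked which genes lagged with PCB126 at a given dose and whether the 2 chemicals reached the same level where the response was near its ceiling.

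TCDD and PCB126 are ligands of AhR, the aryl hydrocarbon receptor, which waits in the cytosol in a complex with Hsp90 and turns on genes once bound. With a ligand, AhR moves to the nucleus, pairs with Arnt and binds DNA elements with a short shared core upstream of its targets. In hepatocytes its best known targets are the cytochrome P450 genes Cyp1a1, Cyp1a2 and Cyp1b1, and the oxidoreductase genes Nqo1 and Aldh3a1.

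The core GCGTG was searched on both strands (CACGC on the other strand, the motifs do not overlap) in 300 bases around gene starts, 250 before and 50 after, taken from RefSeq with build GRCr8. It was found in 9939 of 33469 promoters (29.7%). The promoters of Cyp1b1, a target with a large gap at 1 nM, and of Nqo1, a target with a smaller one, are shown with the core in capitals. They lie at chr6:21094315-21094614 (strand +) and chr19:52220218-52220517 (strand -).
Cyp1b1: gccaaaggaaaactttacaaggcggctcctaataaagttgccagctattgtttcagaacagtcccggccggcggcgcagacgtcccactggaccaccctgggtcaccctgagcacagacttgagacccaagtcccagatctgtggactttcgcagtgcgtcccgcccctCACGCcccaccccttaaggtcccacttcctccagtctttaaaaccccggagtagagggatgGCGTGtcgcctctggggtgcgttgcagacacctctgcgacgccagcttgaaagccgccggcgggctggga
Nqo1: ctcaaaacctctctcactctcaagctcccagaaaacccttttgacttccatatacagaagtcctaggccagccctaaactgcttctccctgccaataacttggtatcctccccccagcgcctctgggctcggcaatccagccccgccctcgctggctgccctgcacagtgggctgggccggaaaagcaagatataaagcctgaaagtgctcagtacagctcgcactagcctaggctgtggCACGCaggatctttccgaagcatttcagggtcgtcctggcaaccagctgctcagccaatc
The Cyp1b1 window held 2 cores, the Nqo1 window held 1 and that of Pla2r1 held 3. The windows of Cyp1a2, Cyp2a1, Pon1 and Acta1 held 0 cores. Of the responder genes described below, 50 of 61 rising genes had a promoter in the table and 21 of these held the core (42%), and 43 of 97 falling ones did (44.3%). Of the genes with a TCDD lead over 1 log2 at 1 nM, 3 of the 10 in the table did (30%). A match is a description of letters and not a binding site.

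The 3 pairs were close to each other. Over the 5197 probe sets kept, Pearson's r within a pair was 0.993 at 1 nM in pool 2, 0.986 at 10 nM in pool 1 and 0.992 at 10 nM in pool 2. The difference of TCDD minus PCB126 had an SD across probe sets of 0.28, 0.38 and 0.30 log2 in those pairs. Hepatocyte markers were expressed: all 11 of the 14 that the array measured were kept, with a mean of 10.09 to 10.43 log2 on the TCDD arrays and 10.08 to 10.53 on the PCB126 arrays. Of the measured markers of other liver cells, 5 of 10 for Kupffer cells and macrophages (among them Clec4f and Csf1r), 5 of 9 for endothelial cells (among them Pecam1 and Vwf), 7 of 20 for stellate cells and fibroblasts (among them Des and Pdgfrb) and 3 of 10 for cholangiocytes (among them Krt19) were at or below the floor of 3.71 log2 on all 6 arrays. Other members were expressed, and 14 stellate cell and 7 cholangiocyte markers were kept. Their list means were 5.16 to 5.63 and 5.48 to 5.91 log2 on the TCDD arrays. On the PCB126 arrays they were 5.20 to 5.50 and 5.62 to 5.97. The stellate marker Sparc had 11.15 to 12.04 log2 on the 6 arrays, so the markers do not show that other liver cells were absent. Mean marker levels within pairs differed by -0.20 to 0.13 log2 over these lists. The actin 3′ to 5′ signal difference, a sign of RNA quality, was 1.60, 0.89 and 1.36 log2 on the TCDD arrays and 1.41, 1.06 and 1.68 on the PCB126 arrays, in the order 1 nM pool 2, 10 nM pool 1 and 10 nM pool 2. The part of these values in the results was not tested. Some arrays outside the comparison stood apart. PCB126 at 1 pM in pool 2 had 10.80 log2 for Cyp1a1, against 3.21 in pool 1 at that dose. It enters the shared estimate of spread, so some results are also given without it. Other counts and intervals are given only with it in the fit. TCDD at 10 pM in pool 2 had the highest actin 3′ to 5′ difference of all arrays, 2.19 log2, and as the single array of its dose it adds nothing to the spread. TCDD at 0.01 pM in pool 2, used below as a baseline with vehicle, had 5.66 log2 for Cyp1a1, against 3.33 in pool 1.

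No probe set passed the test for a difference between the chemicals. With limma and Benjamini-Hochberg adjustment over 5197 probe sets, 0 (0%) were called for TCDD minus PCB126 over the 3 pairs, 0 (0%) at 10 nM, 0 (0%) at 1 nM and 0 (0%) for the difference at 1 nM minus that at 10 nM. At an unadjusted p under 0.05 there were 80, 103, 55 and 48 probe sets, of which 46, 49, 36 and 26 were higher with TCDD or, for the last, had the more positive difference at 1 nM. The intervals say how much of a difference the arrays could have missed. The 95% interval of the difference lay within 1 log2 on either side of 0 for 4821 probe sets (92.8%) over the 3 pairs, for 4346 (83.6%) at 10 nM and for 3366 (64.8%) at 1 nM. A fit confined to the 10 nM arrays, with far fewer residual degrees of freedom, called 3 (Dlat, Ybx1 and Fn1), and confined to the arrays of both doses it called 13 for the difference between doses, among them 2 Cyp1b1 probe sets and Aldh3a1. Leaving out the TCDD 10 nM array of pool 1 gave 1 call over the 3 pairs, Scd2, and leaving out that of pool 2 gave 1 call, Aldoa. These genes were named after their values were seen.

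Set against vehicle, TCDD had called changes at both doses and PCB126 at 10 nM. The counts were 38 probe sets (0.731%) for TCDD at 1 nM, 30 of them higher, and 0 (0%) for PCB126 at 1 nM, where 200 had an unadjusted p under 0.05. At 10 nM they were 110 (2.12%) for TCDD, 72 of them higher, and 73 (1.4%) for PCB126, 54 of them higher. A call in one comparison and none in the other does not show a difference, and the direct test at 1 nM called none. All 4 comparisons share the vehicle arrays. The counts rested on single arrays: without 1 of the arrays being compared they were 3 to 19 for TCDD at 1 nM, 27 to 56 for TCDD at 10 nM, 1 to 3 for PCB126 at 1 nM and 0 to 46 for PCB126 at 10 nM, the 0 without its pool 1 array. Without the 1 pM PCB126 array of pool 2, which is in none of these comparisons, there were 49 and 108 for TCDD at 1 and 10 nM, and 15 and 76 for PCB126.

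The Cyp1 genes, P450s that oxidise polycyclic aromatic compounds, were all called above vehicle at 10 nM with both chemicals. For Cyp1a1 the rise was 9.08 log2 with TCDD (limma adjusted p = 0.0174) and 8.95 log2 with PCB126 (adjusted p = 0.0208). Cyp1a1 had 12.39 log2 with TCDD at 1 nM in pool 2 and 12.53 and 12.37 at 10 nM in pools 1 and 2, against 11.79, 12.63 and 12 on the matched PCB126 arrays, with vehicle at 3.45 and 3.28. All 6 treated arrays thus lay far above vehicle, and the chemicals overlapped. Vehicle values of Cyp1a1, Cyp1a2 and Aldh3a1 were under the floor of 3.71 log2 in both pools, so their rises have no exact size. Cyp1a2, which also metabolises caffeine and oestrogens, had 11.25, 9.72 and 11.20 log2 with TCDD and 10.28, 10.75 and 10.95 with PCB126, against 3.54 and 3.39 with vehicle. The TCDD array at 10 nM in pool 1 was the lowest of the 6 and the other 2 TCDD arrays were the highest. Its other 2 probe sets gave 1.11 and 1.03 log2 for the difference at 1 nM, -0.86 and -0.28 at 10 nM in pool 1 and -0.14 and 0.24 in pool 2. Cyp1b1, an extrahepatic P450 in most settings, had 10.82, 10.93 and 11.35 log2 with TCDD and 9.0, 10.51 and 10.75 with PCB126, against 4.66 and 3.70 with vehicle. Here all 3 TCDD arrays lay above all 3 PCB126 arrays, and PCB126 at 1 nM was the lowest.

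In the 3 pairs the difference for Cyp1b1 was 1.82, 0.42 and 0.60 log2, so TCDD was 3.52-fold higher at 1 nM. Its other 3 probe sets differed by 2.5, 2.29 and 2.46 log2 at 1 nM, and at 10 nM they disagreed in pool 1 with the named one: -0.35, -0.08 and -0.12 log2. In pool 2 at 10 nM they differed by 0.43, 0.51 and 2.51 log2. The gap at 1 nM was thus found in 4 of 4 probe sets, which read the same 1 pair of arrays and are not replicates. The order at 10 nM in pool 1 depended on the probe set. The interval at 1 nM was -1.34 to 4.97 log2 (unadjusted p = 0.236, limma adjusted p = 0.999). Without the 1 pM PCB126 array of pool 2 it was 0.59 to 3.04 (unadjusted p = 0.0067, adjusted p = 0.999).

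**Figure D1:**
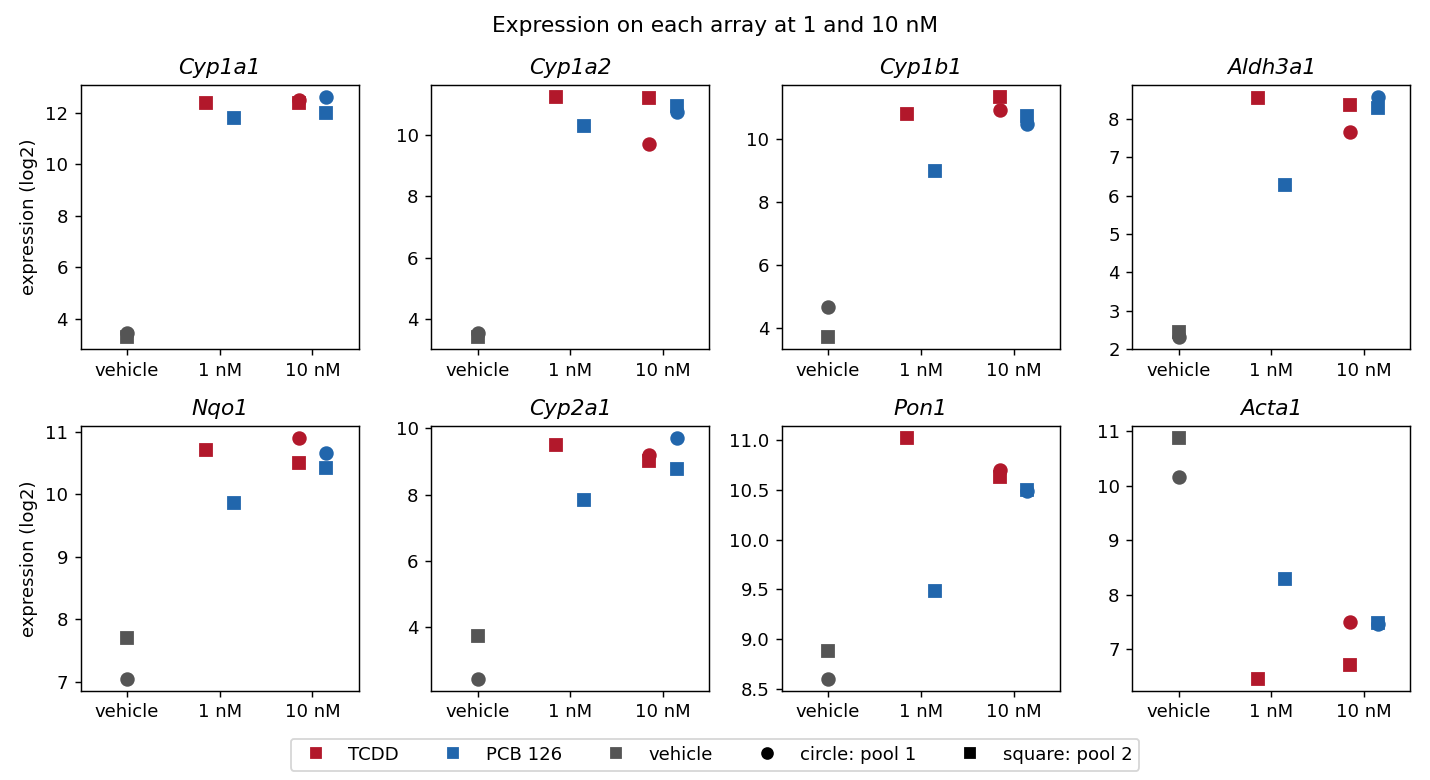
Expression (log2) of 8 genes on each array, with vehicle, 1 nM and 10 nM on the x axis, TCDD in red left of PCB126 in blue, circles for pool 1 and squares for pool 2. At 1 nM the PCB126 square is nearer to vehicle than the TCDD square in all 8 genes, as for Aldh3a1 with 8.54 log2 for TCDD and 6.27 for PCB126. The 8 genes were picked after their values were seen.

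The phase II oxidoreductases showed the same order at 1 nM. Aldh3a1, an aldehyde dehydrogenase, had 8.54, 7.66 and 8.35 log2 with TCDD and 6.27, 8.58 and 8.29 with PCB126, against 2.30 and 2.45 with vehicle. PCB126 at 1 nM was the lowest treated array and PCB126 at 10 nM in pool 1 the highest, so the groups overlapped. TCDD was 4.82-fold higher at 1 nM, a difference of 2.27 log2 with an interval of -0.23 to 4.76 (unadjusted p = 0.0714, limma adjusted p = 0.999), or 0.69 to 3.84 without the 1 pM PCB126 array of pool 2. The differences at 10 nM were -0.91 in pool 1 and 0.06 in pool 2. Nqo1, a quinone reductase, had 10.71, 10.89 and 10.49 log2 with TCDD and 9.85, 10.66 and 10.43 with PCB126, against 7.05 and 7.70 with vehicle. Its differences were 0.86, 0.24 and 0.07 log2, positive in all 3 pairs, and its second probe set gave 0.80, -0.03 and 0.26.

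Of the 11 genes of the AhR battery list, 7 were measured, the 5 above with Ugdh and Nfe2l2. Higher with TCDD were 7 of 7 at 1 nM, 3 of 7 at 10 nM in pool 1 and 6 of 7 at 10 nM in pool 2, with medians of 0.86, -0.10 and 0.09 log2. Against vehicle, 4 of the 7 were called higher with TCDD at 1 nM and 5 at 10 nM, against 0 and 5 with PCB126. Over all 3034 genes these counts were 13 and 37, against 0 and 26. The 0 for PCB126 at 1 nM came from the fit with the 1 pM PCB126 array of pool 2, and battery calls without that array are not given. It does not show that the battery stayed at the vehicle level. Over the 7 genes the median rise over vehicle at 1 nM was 3.42 log2 with PCB126 and 5.69 with TCDD. The medians of TCDD minus PCB126 over all 3034 genes were 0.03, 0.01 and 0.03, with 1742, 1619 and 1679 genes higher with TCDD. None of the 7 passed the test of the difference over the 3 pairs, 0 of them also at an unadjusted p under 0.05. Without the 1 pM PCB126 array of pool 2, Cyp1b1 had an unadjusted p of 0.0124 over the 3 pairs (limma adjusted p = 1), and 0.0189 with the 6 arrays alone in the fit (adjusted p = 0.972). Ugdh, which makes UDP-glucuronic acid, differed by 0.46, 0.39 and -0.37 log2. Nfe2l2, which encodes NRF2, the regulator of antioxidant genes, differed by 0.19, -0.13 and 0.09.

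The receptor and its partners were also described. Ahr had 5.52, 6.08 and 5.52 log2 with TCDD and 4.89, 5.98 and 4.59 with PCB126, against 5.0 and 3.89 with vehicle. It was higher with TCDD in all 3 pairs, by 0.63, 0.10 and 0.93 log2, with a mean of 0.55 (95% interval 0.10 to 1.01) that did not pass the adjustment (adjusted p = 1). Arnt, its DNA-binding partner, differed by less than 0.01 log2 at 1 nM and in pool 1 at 10 nM, and by 0.34 in pool 2. Hsp90ab1, a chaperone of the unliganded receptor, was higher with TCDD by 0.30, 0.26 and 0.19. Of the 6 measured members of this list, 5, 3 and 6 were higher with TCDD in the 3 pairs, against 1742, 1619 and 1679 of all 3034 genes.

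**Figure D2:**
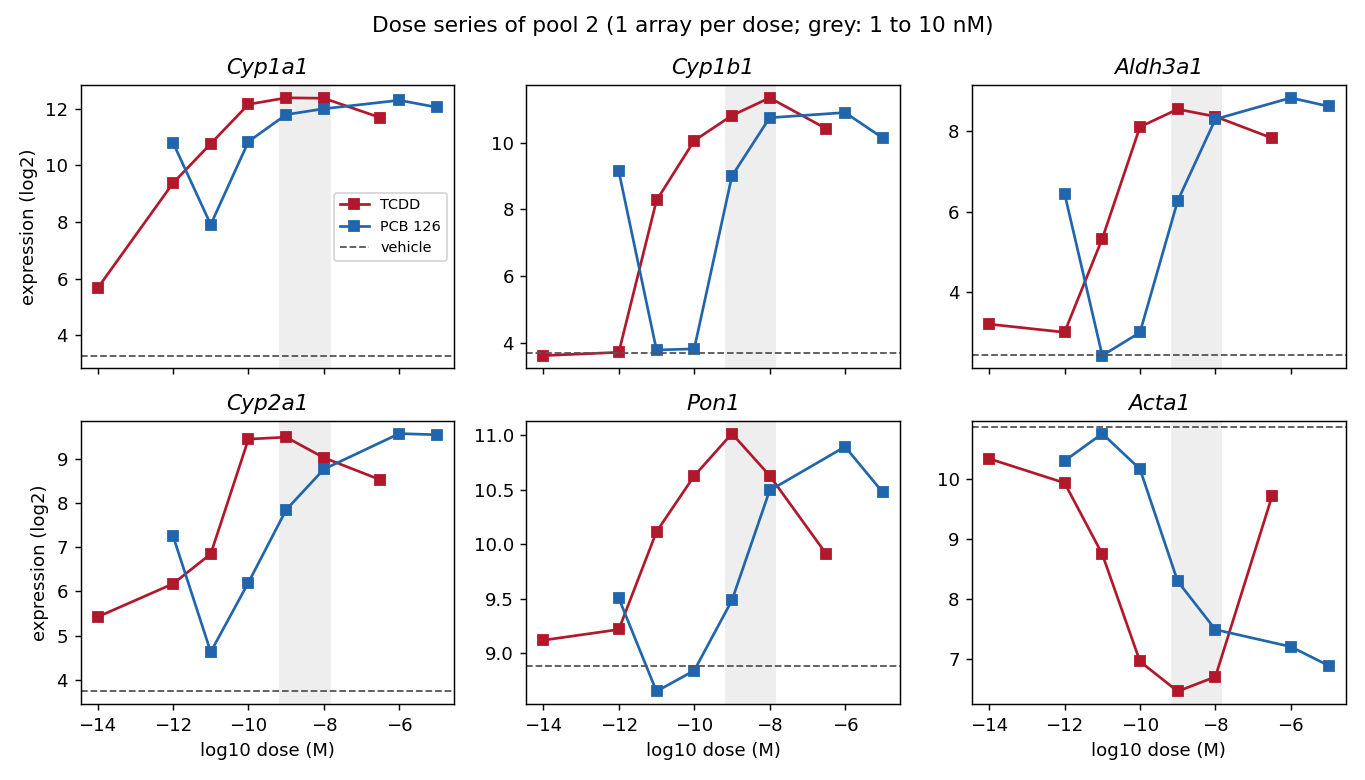
Expression (log2) of 6 genes against log10 dose (M) in pool 2, 1 array per dose, TCDD in red and PCB126 in blue, with vehicle as a dashed line and the range of 1 to 10 nM in grey. In the grey range PCB126 moves towards the TCDD level, as for Cyp2a1 with 7.85 log2 at 1 nM and 8.77 at 10 nM. The 1 pM PCB126 array stands apart at the left in some panels, as for Cyp2a1 with 7.26 log2, against 4.63 at 10 pM.

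To see whether the order at 1 nM held over the wider response, the responding probe sets were taken from arrays outside the 6. They compared the highest doses, TCDD at 316 nM and PCB126 at 1000 and 10000 nM with equal weight for each chemical, against vehicle and TCDD at 0.01 pM. This called 318 probe sets (6.12%), 134 rising and 184 falling, which include 171 genes by their leading probe set. With arrays centred on their medians the split was 212 rising and 128 falling. Each difference was then signed by the direction of the high-dose change, so that a positive value means TCDD was further along the response. The contrast holds none of the 6 arrays, but the 10 nM arrays among them helped to set the spread of the fit. With all 6 left out of the fit, an alternative added after seeing the data, 250 probe sets were called, 240 of them among the 318. Probe sets share arrays and pools, so the shares are descriptions and not tests. Of the 171 responder genes, 5 are the known targets Cyp1a1, Cyp1a2, Cyp1b1, Aldh3a1 and Nqo1. No share is given without them.

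At 1 nM in pool 2, TCDD was further along in 270 of 318 responders (84.9%), against 55.6% of all probe sets tested, with a median lead of 0.26 log2 against 0.03. At 10 nM in pool 1 it was further along in 128 (40.3%), against 45%, with a median of -0.07 against -0.02. At 10 nM in pool 2 it was further along in 215 (67.6%), against 50.6%, with a median of 0.12 against 0.003. The pools thus disagreed in sign at 10 nM, and both medians there were smaller than that at 1 nM. TCDD was further along in all 3 pairs in 81 responders (25.5%, against 12.4%) and PCB126 in 14 (4.4%, against 11.3%). A lead of more than 1 log2 at 1 nM was found in 30 responders with TCDD and 0 with PCB126. At 10 nM these counts were 4 and 11 in pool 1 and 5 and 2 in pool 2. All 5197 probe sets together gave 41 and 2 at 1 nM, 38 and 83 at 10 nM in pool 1 and 38 and 27 in pool 2. The tilt to PCB126 in pool 1 was thus not particular to responders.

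**Figure D3:**
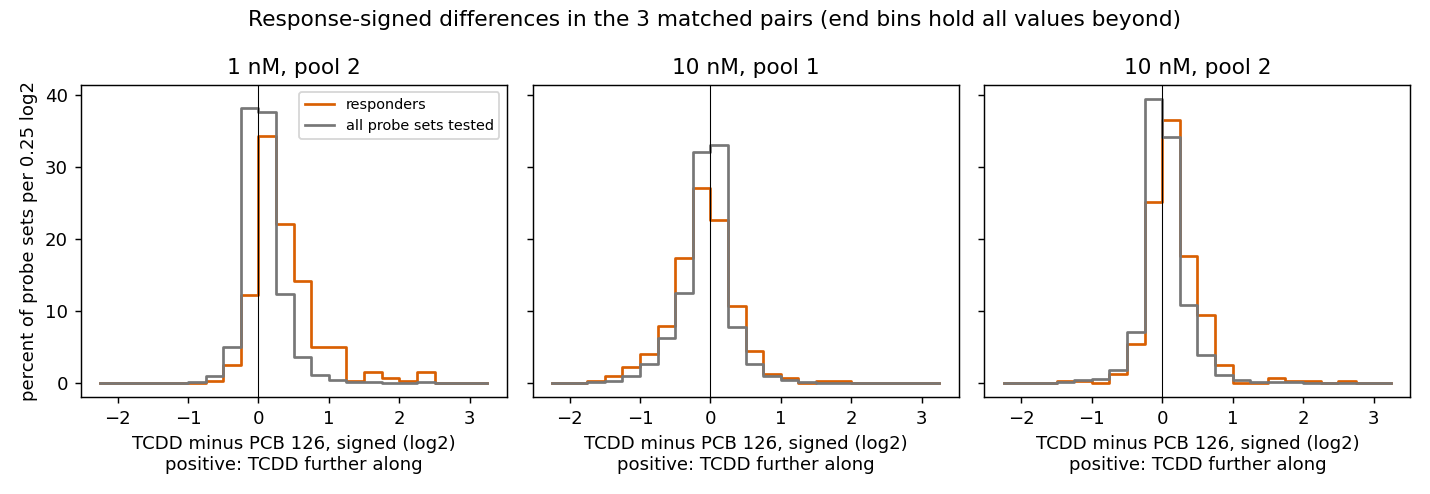
Percent of probe sets per bin of 0.25 log2 against the response-signed difference of TCDD minus PCB126, for the 318 responders in orange and all 5197 probe sets in grey, in 3 panels for the matched pairs. The responders lie to the right of 0 at 1 nM (median 0.26), slightly to its left at 10 nM in pool 1 (median -0.07) and slightly to its right at 10 nM in pool 2 (median 0.12).

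The lead at 1 nM was larger in log2 where the high-dose change was larger, which does not by itself show a longer lag in dose. Among the 41 responders that changed by 2 log2 or more at the highest doses, 39 were further along with TCDD at 1 nM, with a median of 0.96 log2. Among 104 that changed by 1 to 2 log2 the count was 92, with a median of 0.42, and among 173 that changed by less than 1 log2 it was 139, with a median of 0.17. The median high-dose change in these groups was 2.74, 1.36 and 0.69 log2. The group of 41 holds probe sets of the known targets Cyp1a1, Cyp1a2, Cyp1b1, Aldh3a1 and Nqo1. Rising responders led in 121 of 134 (median 0.35) and falling ones in 149 of 184 (median 0.21). At 10 nM the 41 strongest led in 20 in pool 1 and 31 in pool 2, with medians of -0.04 and 0.24 log2. The size of these differences is bounded less well than in other probe sets: the 10 nM interval lay within 1 log2 of 0 for 1 of the 41, and for 200 of the 318.

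Within pool 2 each chemical was also compared with itself, 10 nM against 1 nM, which reuses the arrays of the pairs. PCB126 at 10 nM was further along than at 1 nM in 218 responders (68.6%, against 54.8% of all probe sets), with a median step of 0.12 log2. TCDD was further along at 10 nM in 148 (46.5%, against 51.4%), with a median of -0.02. In the 41 strongest responders the steps were 0.65 log2 for PCB126 and -0.05 for TCDD.

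Among the 171 responder genes, 15 had a TCDD lead of more than 1 log2 at 1 nM. They were Pla2r1, Aldh3a1, Acta1, Cyp1b1, Cyp2a1, Tagln, Pon1, Hal, Tsx, Cyp2a2, Ccl20, Hsd17b2, Mark3, Tat and Cyp3a23-3a1. None passed the adjusted test. Pla2r1, a phospholipase A2 receptor, had 5.67, 6.52 and 5.66 log2 with TCDD and 3.31, 7.16 and 3.83 with PCB126, against 3.01 and 2.29 with vehicle. In pool 2 both TCDD arrays were above both PCB126 arrays, of which that at 1 nM was under the floor of 3.71, so that the difference of 2.36 log2 at 1 nM has no exact size, and in pool 1 the order was the opposite.

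**Figure D4:**
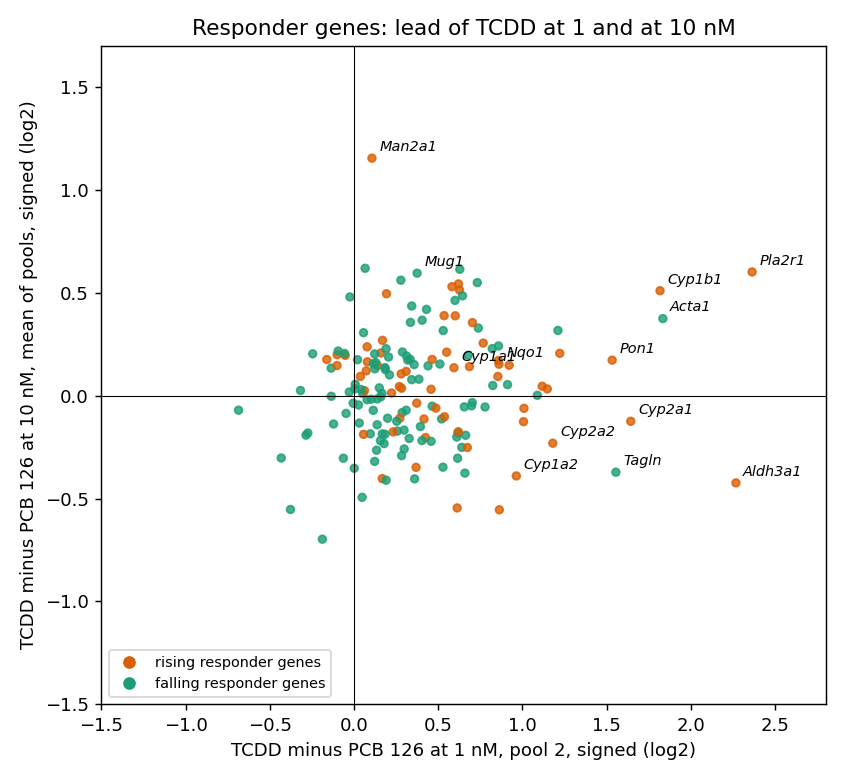
Response-signed difference of TCDD minus PCB126 at 1 nM in pool 2 (x axis, log2) and at 10 nM as the mean of both pools (y axis, log2) for 171 responder genes, rising in orange and falling in green. Most points lie right of 0 (149 of 171), and Aldh3a1, Tagln and Cyp2a1 lie far to the right yet below 0 at 10 nM.

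Other P450s called higher at the highest doses had the same order as Cyp1b1 at 1 nM. Cyp2a1, a steroid hydroxylase, had 9.49, 9.19 and 9.03 log2 with TCDD and 7.85, 9.70 and 8.77 with PCB126, against 2.44 and 3.74 with vehicle. Its difference was 1.64 log2 at 1 nM (3.12-fold) and -0.51 and 0.26 at 10 nM. Cyp2a2, a related hydroxylase, had 9.18, 8.57 and 8.46 log2 with TCDD and 8.0, 8.96 and 8.54 with PCB126, against 7.75 and 6.85 with vehicle, and was 2.27-fold higher at 1 nM. The interval for Cyp2a2 at 1 nM was 0.35 to 2.01 log2 (unadjusted p = 0.00871, adjusted p = 0.999). Cyp3a23-3a1, a target of the xenobiotic receptor PXR, differed by 1.01, -0.34 and 0.09. Cyp2c12, a female-specific P450, had 7.40, 4.26 and 6.98 log2 with TCDD and 8.03, 5.39 and 7.08 with PCB126, against 8.93 and 9.56 with vehicle. TCDD was lower in all 3 pairs, by 0.63, 1.12 and 0.11 log2 in size. Cyp2e1, which oxidises ethanol, differed by 0.02, -1.02 and 0.06. Of 19 measured constitutive liver P450s, Cyp2a2 among them, 12, 5 and 9 were higher with TCDD in the 3 pairs, with medians of 0.05, -0.13 and -0.02 log2 and 0 called. The counts over all 3034 genes were 1742, 1619 and 1679.

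Some enzymes, transporters and secreted proteins were called higher at the highest doses and are described one by one. On the list of hepatocyte secreted and identity genes, 8 of 31 were higher with TCDD at 1 nM (median -0.14 log2), 19 at 10 nM in pool 1 and 9 in pool 2, with 0 called. Among all 3034 genes, 1742, 1619 and 1679 were higher with TCDD in these pairs. Pon1, a lipoprotein-bound esterase, had 11.02, 10.70 and 10.63 log2 with TCDD and 9.48, 10.49 and 10.49 with PCB126, against 8.61 and 8.88 with vehicle. All 3 TCDD arrays lay above all 3 PCB126 arrays. Its difference at 1 nM was 1.53 log2, 2.89-fold, with an interval of 0.67 to 2.40 (unadjusted p = 0.0019, adjusted p = 0.999), and its other 2 probe sets gave 1.02 and 1.11. Those 2 were lower with TCDD in pool 1 at 10 nM, by 0.24 and 0.29 log2 in size, so the separation of the arrays holds for the named probe set. At 10 nM the difference of the named one was 0.17 log2 (-0.44 to 0.79), and the difference between the doses was 1.36 log2 (0.30 to 2.42, adjusted p = 1).

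Tat, an enzyme of tyrosine breakdown, had 9.43, 8.58 and 9.01 log2 with TCDD and 8.42, 8.74 and 8.98 with PCB126, against 7.03 and 7.82 with vehicle. Hal, which starts histidine breakdown, had 6.21, 5.10 and 6.51 log2 with TCDD and 4.99, 5.20 and 6.0 with PCB126, against 3.17 and 3.66 with vehicle. Both were higher with TCDD at 1 nM, by 1.01 (0.30 to 1.72) and 1.22 log2 (0.21 to 2.24). In pool 1 at 10 nM both were lower with TCDD, by 0.15 and 0.10 in size. On their list, amino acid breakdown and urea cycle, 16, 10 and 11 of 27 genes were higher with TCDD in the 3 pairs. Tat is also on the list of glucose production and handling, where 8, 6 and 9 of 15 were. In either list 0 were called. The counts over all 3034 genes were 1742, 1619 and 1679. Apob, the main protein of very low density lipoprotein, had 11, 11.11 and 10.39 log2 with TCDD and 10.14, 11.67 and 10.93 with PCB126, against 10.51 and 9.94 with vehicle. It was higher with TCDD at 1 nM by 0.86 log2 (0.21 to 1.51) and lower in both pools at 10 nM, by 0.55 on average (-1.01 to -0.09, adjusted p = 1). Slc17a1, a phosphate and anion transporter, differed by 0.67, -0.50 and -0.01 log2, with an interval at 1 nM of -0.79 to 2.13. Igfbp1, a binding protein of insulin-like growth factors, differed by 0.54 (-0.87 to 1.95), -0.09 and -0.12, and Hsd17b2, which inactivates oestradiol, by 1.12 (-0.66 to 2.90), 0.22 and -0.13.

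Contractile genes that were called lower at the highest doses had lower values with TCDD than with PCB126 at 1 nM, with no difference called. Acta1, a muscle actin, had 6.46, 7.50 and 6.70 log2 with TCDD and 8.30, 7.47 and 7.49 with PCB126, against 10.16 and 10.87 with vehicle. TCDD was lower in both pool 2 pairs, by 1.83 log2 at 1 nM (interval -3.57 to -0.09) and 0.79 at 10 nM in size, and in pool 1 the arrays were within 0.04. Tagln, an actin-binding protein of smooth muscle, had 7.79, 9.25 and 8.38 log2 with TCDD and 9.35, 8.11 and 8.78 with PCB126, against 10.53 and 11.09 with vehicle. Its differences were -1.55, 1.14 and -0.40 log2, so the pools disagreed at 10 nM. Myl9, a myosin light chain, differed by -0.68, -0.07 and -0.32. Of 24 measured contractile and cytoskeletal genes, 17 were lower with TCDD at 1 nM, 11 at 10 nM in pool 1 and 17 at 10 nM in pool 2. Among all 3034 genes, 1742, 1619 and 1679 were higher with TCDD in these pairs. Tagln is also one of the stellate cell markers, a list of which 14 were kept and 8, 8 and 10 were higher with TCDD in the 3 pairs. A smaller share of such cells and less RNA per cell cannot be told apart in these cultures.

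**Figure D5:**
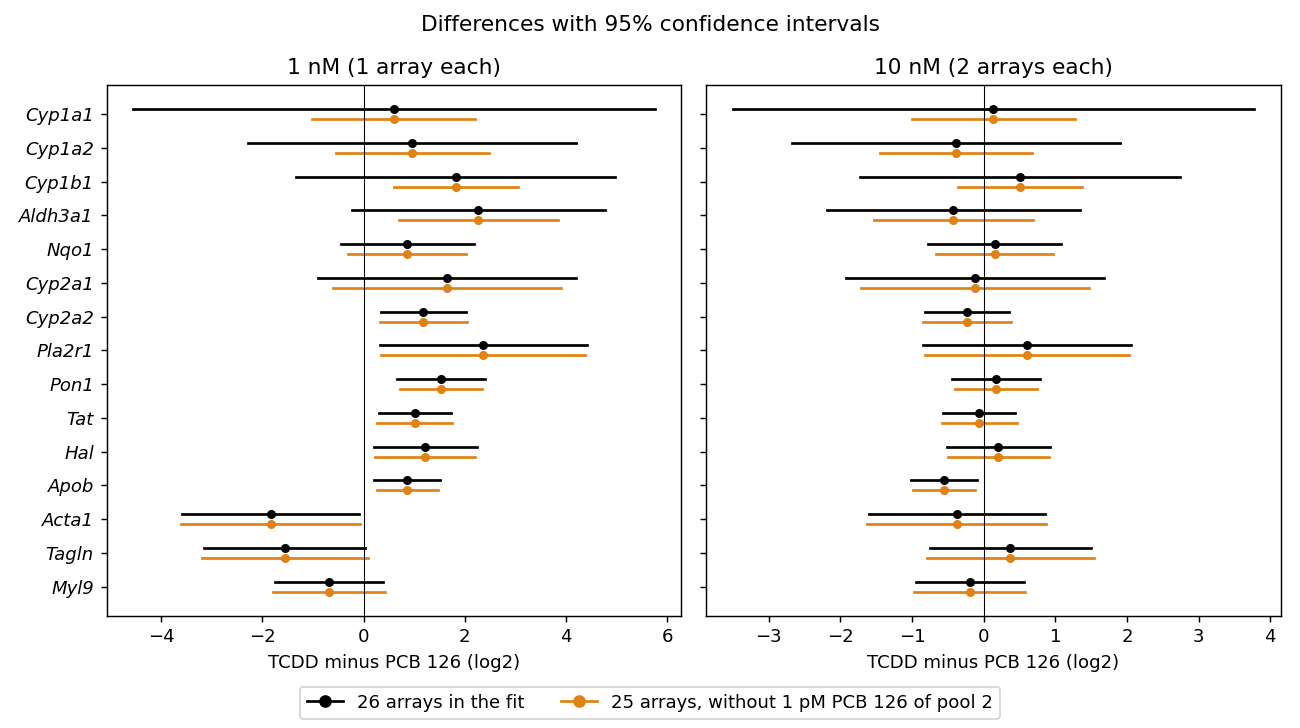
Difference of TCDD minus PCB126 (x axis, log2) with its 95% confidence interval for 15 genes, at 1 nM (left) and 10 nM (right), from all 26 arrays in black and without the 1 pM PCB126 array of pool 2 in orange. Estimates at 1 nM lie to the side of 0 that is further along the response in all 15 genes, which were picked after their values were seen. Of all 171 responder genes, 149 did so. At 10 nM all intervals of the 15 but that of Apob hold 0.

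A shared sign in all 3 pairs was common: of 3034 genes, 473 were higher with TCDD in all 3 and 264 lower. Il6st, C3, Cyp51 and Kifc3 are examples with no called change at the highest doses. Il6st, the signalling chain of interleukin 6 receptors, had 5.96, 6.26 and 6.27 log2 with TCDD and 5.45, 5.73 and 5.31 with PCB126, against 5.69 and 5.80 with vehicle. All 3 TCDD arrays were above the 3 PCB126 arrays, with a mean difference of 0.66 log2 (0.26 to 1.07, adjusted p = 1). C3, the central complement protein, differed by 0.66, 0.22 and 0.14, and Cyp51, a step of cholesterol synthesis, by 0.25, 0.95 and 0.53. Kifc3, a kinesin, differed by 0.54, 0.16 and 0.25, close to the floor on all arrays. Among responders, Man2a1, a Golgi mannosidase, differed by 0.11, 0.73 and 1.58, with its larger values at 10 nM. Cebpb, a regulator of liver acute phase genes, differed by 0.62, 0.88 and 0.20, and Cxcl6, a neutrophil chemokine, by 0.60, 0.50 and 0.27. Of 29 acute phase and complement genes, 19, 18 and 18 were higher with TCDD, and of 19 genes of cholesterol and fatty acid synthesis 14, 14 and 14 were, with 0 called in either list. The counts over all 3034 genes were 1742, 1619 and 1679.

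Of the 110 responder genes called lower at the highest doses, TCDD was further along in 92 at 1 nM, 36 at 10 nM in pool 1 and 79 at 10 nM in pool 2. Mug1, an antiprotease and one of them, had 6.17, 4.40 and 5.96 log2 with TCDD and 6.55, 6.21 and 5.35 with PCB126, against 8.64 and 6.37 with vehicle. Aldh1a1, a retinal dehydrogenase, differed by -0.61, 0.72 and -0.32 log2, and Kynu, an enzyme of tryptophan breakdown, by 0.01, 0.62 and -0.54. Apcs, the pentraxin serum amyloid P, was lower with TCDD in all 3 pairs, by 0.73, 0.80 and 0.30 in size, and Tsx, whose role in liver is not described here, by 1.21, 0.15 and 0.49. Pde4b, a cyclic AMP phosphodiesterase called higher at the highest doses, differed by 0.46, 0.75 and -0.39.

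The level at 10 nM was also set against the highest doses of the same chemical. For TCDD against 316 nM 0 probe sets (0%) were called, with 265 at an unadjusted p under 0.05, and for PCB126 against 1000 and 10000 nM 0 (0%) were called, with 166. Leaving out single arrays of the comparison gave up to 3 calls for TCDD and 0 for PCB126. With those arrays alone in the fit there were 0 for TCDD and 14 for PCB126, among them Cyp3a23-3a1 at -0.96 log2 (limma adjusted p = 0.0496). The TCDD arrays at the highest dose were unlike each other. Cyp1a1 had 12.53 and 12.37 log2 at 10 nM and 12.77 and 11.69 at 316 nM in pools 1 and 2, and Acta1 had 7.50 and 6.70 at 10 nM and 6.99 and 9.71 at 316 nM. In pool 2 the 316 nM array thus lay nearer to vehicle than the 10 nM array for both genes. As means of the pools, Cyp1a1 at 10 nM differed from the highest doses by 0.22 log2 for TCDD and 0.01 for PCB126, Aldh3a1 by 0.05 and -0.12, Cyp1b1 by 0.46 and 0.22, and Nqo1 by 0.62 and 0.32. Between the chemicals at 10 nM the difference was 0.14 log2 for Cyp1a1 (-3.51 to 3.78), -0.39 for Cyp1a2 (-2.68 to 1.90), 0.51 for Cyp1b1 (-1.72 to 2.74), -0.42 for Aldh3a1 (-2.19 to 1.34) and 0.15 for Nqo1 (-0.78 to 1.08). Without the 1 pM PCB126 array of pool 2 these intervals were -1.01 to 1.28, -1.45 to 0.67, -0.36 to 1.38, -1.54 to 0.69 and -0.67 to 0.97. No gap was detected near the ceiling with 2 arrays for each chemical. With all arrays in the fit, the interval limits furthest from 0 were 3.78 log2 for Cyp1a1, -2.68 for Cyp1a2 and 2.74 for Cyp1b1. They were -2.19 for Aldh3a1 and 1.08 for Nqo1. Gaps within these limits could not be told from none in that fit. Without the 1 pM PCB126 array of pool 2, gaps of about 1 log2 in these genes still could not be told from none.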

How the data were processed

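The deposited values are log2 expression, 1 column per array, made by the authors with GCRMA 2.8.0, per the submitters' processing notes, which name RMA too. What RMA was used for is not given in the sources used here. Arrays of the 6 and their doses, pools and chemicals came from the labels. After removal of 59 controls, a probe set entered the tests if at least 2 arrays exceeded the median of all values (3.71), which 5197 of 8740 did. Of the 8740, 7006 have 1 gene symbol, 308 name several genes and 1426 none. A gene is represented by its kept probe set with the highest mean, 3034 genes in all. 

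limma 3.58.1 in R 4.3.3 (eBayes with trend and robust) fitted the pool and 15 group means over 26 arrays (10 residual degrees of freedom), so groups with 1 array borrow the spread of the rest. The 3-pair contrast weights the 10 nM difference by 2 and the 1 nM difference by 1. Adjusted p below 0.05 was called. The pool was a block because the labels place its arrays in the same animals' cells; deviations of same-pool arrays correlated with r of 0.461 to 0.892 over 11 groups. P-values measure the spread between arrays. The method was also run on simulated data, and the outcome is not reported here. The members, gene lists and rule were chosen with earlier results of these data known. Named genes follow a rule: the top genes of each contrast, the AhR battery and complex, the strongest responders, those most ahead or behind, and up to 4 per list by p. The rule gave 148 genes, and the 39 described were picked from them after their values were seen, as were the responder shares. Alternatives varied the filter, centring, block, moderation, weights, arrays in the fit and single arrays.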

Additional observations from a re-analysis of the deposited data

Results flagged for a closer look

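At 10 nM the 2 pools went opposite ways in 3 of the named genes, with at least 0.5 log2 on each side, a size chosen for this report. Each pool is 1 pair, so the difference between pools was not tested. For Pla2r1, TCDD minus PCB126 was -0.63 log2 in pool 1 and 1.84 in pool 2, a difference of 2.47 between pools. For Mug1 it was -1.81 in pool 1 and 0.62 in pool 2, a difference of 2.43. For Kynu it was 0.62 in pool 1 and -0.54 in pool 2, a difference of -1.16. These are 3 of 39 genes looked at, which were picked after their values were seen. The share of such genes among all genes tested was not counted. Whether 3 of 39 is more than usual for single pairs of arrays thus cannot be told.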

How the results depend on the processing

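Pools pair the arrays, and without the pool as a block the counts fell: 33 for TCDD and 21 for PCB126 over both doses against vehicle (156 and 82 with it), 8 and 27 for TCDD at 1 and 10 nM, 24 for PCB126 at 10 nM and 55 responders, of which TCDD led in 90.9% at 1 nM and 74.5% at 10 nM in pool 2. The replicate block changed no call between the chemicals, 0 either way. Confined to the arrays of a comparison, the fit called 3 for TCDD minus PCB126 at 10 nM, 13 for the difference between doses, 26 and 11 for TCDD and PCB126 over both doses, 25 and 10 at 10 nM, 165 responders (88.5% and 73.3% led by TCDD at 1 nM and at 10 nM in pool 2) and 14 for PCB126 at 10 nM against its highest doses. With no filter the counts were 19 for TCDD and 1 for PCB126 at 1 nM, with the filter at 6 log2 3 for PCB126 at 1 nM, and without the 1 pM PCB126 array of pool 2, outside the arrays compared, 15 for PCB126 at 1 nM, 150 and 89 for TCDD and PCB126 over both doses, 49 and 108 for TCDD at 1 and 10 nM and 76 for PCB126 at 10 nM. Responders chosen with the highest TCDD dose alone led in 47.8% and 74.6% at 10 nM in pools 1 and 2, and those chosen against vehicle alone in 90.7% at 1 nM and 72.9% at 10 nM in pool 2. With the 6 arrays out of the fit, 250 responders gave 86.4%, 41.6% and 71.6%. These choices were made after seeing the data.

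Leaving out 1 of the arrays being compared at a time gave 0 to 1 calls over the 3 pairs, 0 to 1 at 10 nM, 67 to 113 and 27 to 73 for TCDD and PCB126 over both doses, 3 to 19 and 27 to 56 for TCDD at 1 and 10 nM, 1 to 3 and 0 to 46 for PCB126, 0 to 3 for TCDD at 10 nM against its highest dose and 116 to 432 responders, with shares of 80.6% to 90.5% at 1 nM, 34.7% to 50% in pool 1 and 56.7% to 74.5% in pool 2 at 10 nM. Over the 3 pairs 38 of 544 recomputed gene differences changed sign, in 17 genes, 37 of them on leaving out an array, and leaving out a 1 nM array turns the contrast into the 10 nM one. Their ranges were -0.17 to 0.75 log2 for Cyp1a1, -0.39 to 0.37 for Cyp1a2, -0.42 to 0.93 for Aldh3a1, -0.067 to 0.39 for Ugdh, -0.051 to 0.15 for Nfe2l2, -0.12 to 0.92 for Cyp2a1, -0.23 to 0.30 for Cyp2a2, -0.13 to 0.50 for Cyp3a23-3a1, -0.28 to 0.39 for Slc17a1, -0.21 to 0.43 for Igfbp1, -0.051 to 0.60 for Pde4b, -0.061 to 0.44 for Tat, -0.84 to 0.37 for Tagln, -1.24 to 0.19 for Mug1, -0.40 to 0.26 for Aldh1a1 and -0.19 to 0.24 for Kynu. With equal weights of the doses Apob was 0.15. No gene difference was called in any of the 544. The 1 nM contrast could not be fitted without either of its arrays or on them alone. Causes were not tested.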
